A study of Mus musculus with 6 samples.

Results

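Angiogenic growth factors are secreted proteins through which one cell type directs the growth and leakiness of blood and lymphatic vessels. The set described here holds 10 genes, taken by symbol from a gene table of 33682 rows: the VEGF family ligands Vegfa, Vegfb, Pgf, Vegfc and Vegfd, the angiopoietins Angpt1 and Angpt2, the angiopoietin-like genes Angptl2 and Angptl4, and Hgf. Each symbol had a single row. The 9 members other than Angpt2 had a mean of at least 1 FPKM (fragments scaled to gene length and library size) over all samples and passed the abundance filter of the test.

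The samples are 6 RNA-seq libraries of neonatal rat heart cells of wild-type genotype, 3 per group. One group was kept in the supernatant of wild-type bone marrow-derived mast cells (WT medium), the other in that of ALOX5-/- mast cells (Alox5KO medium), and in both the mast cells had been treated with TNF-a. Alox5 makes the first intermediate of leukotriene synthesis. The groups therefore differ in the genotype of the cells that made the medium, and no culture without such medium was analysed here. Leukotrienes and TNF-a in the media were not measured here, and their effects cannot be told apart from those of any further difference between both media.

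Within the VEGF family, Vegfa, Vegfb and Pgf bind the receptor Flt1, Vegfa also signals through Kdr, the main receptor of blood vessel growth, and Vegfc and Vegfd act through Flt4, the receptor of lymphatic endothelium. Angpt1 activates the receptor Tek and steadies vessels, whereas Angpt2 can oppose it. Hgf, made by mesenchymal cells, signals through the receptor Met on epithelium and endothelium, and Angptl4 inhibits lipoprotein lipase. In the heart, fibroblasts and mural cells are among the sources of such ligands, while many of their receptors sit on endothelium.

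Libraries held between 13284088 and 15766187 reads, recovered from the deposited values. The sample labels name cardiomyocytes, whereas the design text of the series names fibroblasts. The fibroblast markers were the abundant ones, all 19 of them passing the filter with library medians between 74.7 and 99.1 FPKM, against 0.562 to 2.06 FPKM for 17 cardiomyocyte markers. The most abundant of the former was the collagen chain Col1a1, at 3290 ± 577 and 3741 ± 483 FPKM with WT and Alox5KO medium, and of the latter the calcium pump Atp2a2, at 67.8 ± 3.84 and 56.1 ± 4.78 FPKM (mean ± SD, 3 samples each), and neither passed the test between the media. Of 10 tested cardiomyocyte markers 3 nevertheless rose with Alox5KO medium and 0 fell, with a median log2 change of 0.57. The summed level of all 17 went from 99.8 to 130 FPKM over the WT-medium samples to 157 to 179 FPKM. This difference was mainly that of the troponin Tnnt2, at 23.0 ± 6.92 and 79.9 ± 10.6 FPKM (mean ± SD, 3 samples each). Pln and Myh7 were the others that rose. Of the 19 fibroblast markers 4 rose and 5 fell, with a median of 0.0033. Without WT-medium replicate 3, 5 fibroblast markers rose and 5 fell, and 2 cardiomyocyte markers rose and 0 fell. The part of these changes in those of the growth factors was not tested. Endothelial markers were scarce: 11 of 15 lay below the filter, and Emcn, Cldn5 and Robo4 had no read in any library. WT-medium replicate 3 stood apart from the other libraries on the second principal component, at -25.0, and values without it are given for some of the results that it changes. The labels do not say that replicates came from separate cultures, so p-values here measure only a spread between libraries that may be technical. In such bulk samples fewer cells of a type and less RNA per cell cannot be told apart.

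Setting Alox5KO medium against WT medium asks how the cultured cells respond to Alox5 in the activated mast cells. Among the growth factors it showed a rise of the lymphatic ligands Vegfc and Vegfd and of the Tek ligand Angpt1, and a fall of Hgf, Angptl4 and Vegfa. Angpt2, the other Tek ligand, was called higher only without the abundance filter, from few reads. That call was lost in 5 of 14 alternatives, and Angpt2 is not among the tested members counted below. Vegfc went from 36.5 ± 0.705 to 144 ± 18.3 FPKM and Hgf from 12.5 ± 3.37 to 2.16 ± 0.811 FPKM (mean ± SD, 3 samples each). Of the 9 tested members 3 rose, 3 fell and 3 did not pass limma's test at 0.05 after Benjamini-Hochberg (BH) adjustment over all genes. In the same fit 20.7% of all 12341 tested genes passed, 10.03% higher and 10.6% lower with Alox5KO medium. The groups did not overlap for 8 of the 9 tested members, against 37.6% of all tested genes. The median log2 change of the tested members was 0.22, beside -0.00082 for all tested genes. That median is the value of Pgf, and it was -0.10 without WT-medium replicate 3 and -0.07 without Alox5KO-medium replicate 2. All fold changes below are Alox5KO medium minus WT medium on the scale of log2(FPKM + 1), which understates changes of scarce transcripts.

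**Figure D1:**
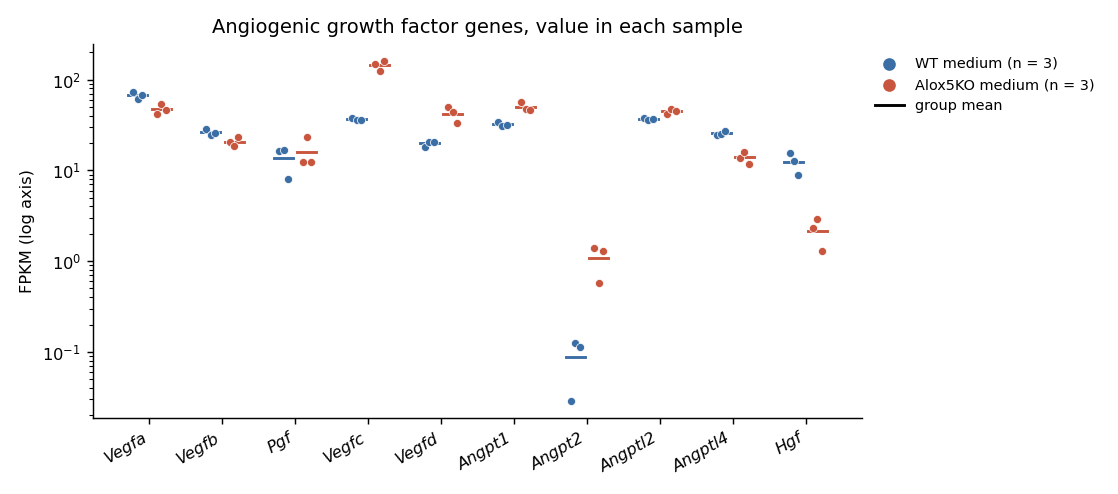
FPKM of the 10 growth factor genes in each of the 6 samples, on a log axis, with 3 samples per medium as points and the group mean as a line. The 3 Alox5KO-medium samples lie above all WT-medium samples for Vegfc, Vegfd, Angpt1, Angpt2 and Angptl2 and below them for Vegfa, Vegfb, Angptl4 and Hgf, while for Pgf the groups overlap.

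Vegfc, the ligand that drives sprouting of lymphatic vessels, showed the largest rise of the 9 tested members. WT-medium samples had 37.3, 36.2 and 36.0 FPKM, and Alox5KO-medium samples had 147, 124 and 160 FPKM. The WT values were almost the same, and the lowest Alox5KO value was far above them. The group means differed 3.94-fold, and the log2 change was 1.94 (SE 0.11, limma BH-adjusted p = 5.7e-06), the 86th largest rise among the tested genes. It ran from 1.86 to 2.04 over 16 alternative analyses and passed in each of them. The gene (ENSRNOG00000011416) lies on the minus strand of chromosome 16 from 40440207 to 40555576, as the table gives it for an unnamed rat build. A row on the opposite strand of this locus, AABR07025568.1, was above 0 in 1 sample, Alox5KO-medium replicate 1, at 1.53 FPKM.

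Vegfd, the second ligand of Flt4, rose as well. It had 18.2, 20.7 and 20.7 FPKM with WT medium, compared with 49.3, 43.4 and 33.1 FPKM in Alox5KO medium. Every Alox5KO sample exceeded every WT sample, with a wider spread among the former. The log2 change was 1.03 (SE 0.14, limma BH-adjusted p = 0.0011), and 0.90 to 1.18 over the alternatives, each of which passed. Vegfd (ENSRNOG00000003587) lies on chromosome X from 31816436 to 31851715, and no other row of the table overlaps it.

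Vegfa, the principal driver of blood vessel growth and a target of the hypoxia-inducible factors, fell. WT-medium samples had 73.4, 61.8 and 67.8 FPKM, against 42.1, 54.0 and 46.4 FPKM with Alox5KO medium. The groups did not overlap, with 61.8 and 54.0 FPKM as the samples nearest to each other. The log2 change was -0.51 (SE 0.12, limma BH-adjusted p = 0.015). Leaving out replicate 1 of the WT-medium samples, or replicate 1 or 3 of the Alox5KO-medium samples, ended the call, with BH-adjusted p of 0.073, 0.051 and 0.053 by limma, within a range of 0.0083 to 0.073 over all alternatives. Vegfa (ENSRNOG00000019598) lies on the plus strand of chromosome 9 from 17340341 to 17355681.

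Vegfb, a Flt1 ligand linked to fatty acid handling, and Pgf, the placental growth factor, did not pass. Vegfb had 28.8, 24.7 and 25.8 FPKM with WT medium, compared with 20.3, 18.5 and 23.4 FPKM in Alox5KO medium, so that its groups did not overlap either. Its log2 change was -0.34 with a 95% confidence interval of -0.60 to -0.08 (limma BH-adjusted p = 0.066), and it passed without Alox5KO-medium replicate 3, at an adjusted p of 0.040 by limma with BH adjustment in a range up to 0.24. Pgf was the most variable of the family members, with 16.2, 16.6 and 7.98 FPKM in the WT-medium samples and 12.3, 23.2 and 12.2 FPKM in the Alox5KO-medium samples. The low value was that of WT-medium replicate 3 and the high value that of Alox5KO-medium replicate 2. The interval of the Pgf fold change, from -0.68 to 1.12 on the log2 scale, is wide enough to hold a change of the size seen for Vegfd, and its sign turned when either of these samples was left out.

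**Figure D2:**
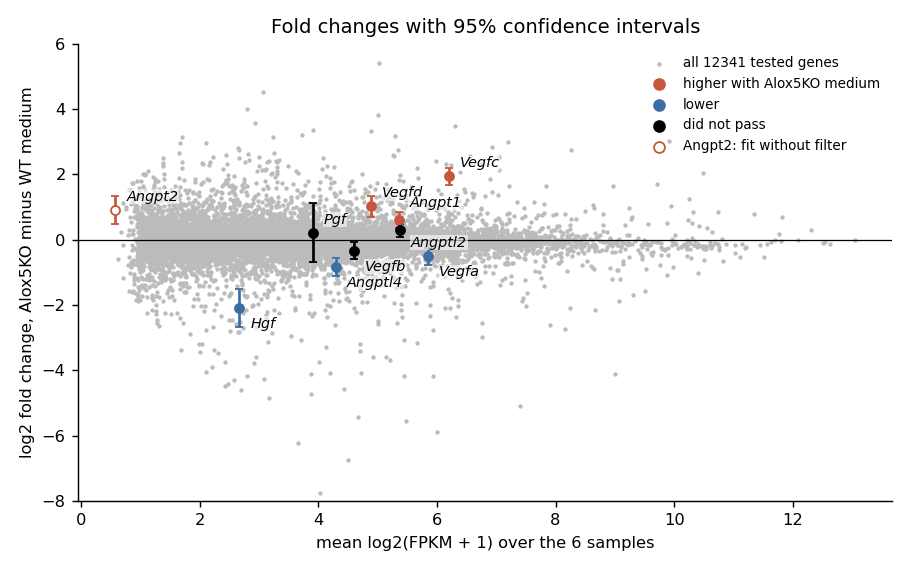
Log2 fold change (Alox5KO minus WT medium) against the mean log2(FPKM + 1) over the 6 samples, with all 12341 tested genes in grey and the 10 growth factor genes with 95% confidence intervals. Vegfc at 1.94 and Hgf at -2.09 lie farthest from 0 among the members. The intervals of Angpt1, Vegfd, Angptl4 and Vegfa also lie away from 0, as does that of Angpt2 from the fit without a filter (open point). Those of Vegfb and Angptl2, which did not pass after adjustment, exclude 0 as well, and only the interval of Pgf holds it.

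Because FPKM values are scaled to gene length, the VEGF ligands can be added up within a sample. The 5 ligands together had 174, 160 and 158 FPKM with WT medium, compared with 271, 263 and 275 FPKM in Alox5KO medium. Their sum was 1.64 times as high with Alox5KO medium (164 ± 8.56 against 270 ± 6.19 FPKM, mean ± SD of 3 samples each, exact two-sided permutation test p = 0.10, the smallest that 3 samples against 3 can give). Vegfa made up 42.2%, 38.7% and 42.8% of the sum in the WT-medium samples and 15.6%, 20.5% and 16.8% in the Alox5KO-medium samples. Thus Vegfa was the most abundant VEGF ligand transcript in each WT-medium sample and Vegfc in each Alox5KO-medium sample. The mean share of Vegfa fell by 23.6 percentage points, from 41.2% ± 2.26 to 17.7% ± 2.58, and that of Vegfc went from 22.3% ± 0.711 to 53.2% ± 5.61 (mean ± SD of 3 samples each, exact two-sided permutation test p = 0.10 for each, the smallest possible). As parts of the same sum these shares are not independent, since a rise of Vegfc by itself lowers the share of Vegfa.

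The ratio of Vegfc to Vegfa, a measure chosen after the values were seen, was 0.508, 0.585 and 0.531 with WT medium and 3.48, 2.29 and 3.46 with Alox5KO medium. Vegfc and Vegfd together took 34.4% ± 2.18 of the family sum with WT medium and 68.7% ± 4.57 with Alox5KO medium (mean ± SD, 3 samples each). Vegfd itself kept a share of 12.0% to 18.2% with Alox5KO medium against 10.5% to 13.1% with WT medium, and these ranges overlap.

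**Figure D3:**
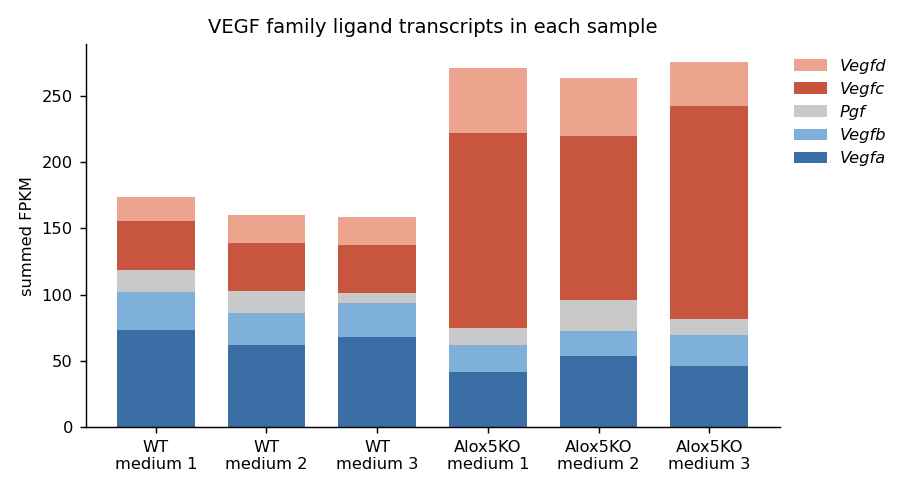
Summed FPKM of the 5 VEGF family ligands in each sample, with 1 stacked bar per sample and 1 colour per gene. The bars of the Alox5KO-medium samples reach 263 to 275 FPKM, above the 158 to 174 FPKM of the WT-medium samples, and their largest segment is Vegfc instead of Vegfa.

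Both angiopoietins were higher with Alox5KO medium, at very unequal levels. Angpt1 had 34.4, 31.0 and 32.0 FPKM with WT medium, compared with 56.4, 47.2 and 46.2 FPKM in Alox5KO medium, without overlap. Its log2 change was 0.60 (SE 0.11, limma BH-adjusted p = 0.0037), and it ran from 0.51 to 0.67 over 16 alternatives that all passed. The Angpt1 gene (ENSRNOG00000005854) lies on chromosome 7 from 81342280 to 81592206.

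Angpt2, which endothelium releases when vessels are remodelled, was scarce in every sample. It had 0.0291, 0.124 and 0.113 FPKM with WT medium, counted from 1, 4 and 4 reads, and 1.40, 0.581 and 1.30 FPKM with Alox5KO medium, counted from 52, 23 and 48 reads. All 3 Alox5KO samples were higher, and the group means differed 12.3-fold on the FPKM scale. With a mean under 1 FPKM it was tested only in the fit without the filter on low values, in which 12.1% of 19519 genes passed, 5.78% were called higher and 14.5% had non-overlapping groups in that direction. There its log2 change was 0.92 (SE 0.18, limma BH-adjusted p = 0.020). The same fit gave 2.62 with a pseudocount of 0.1 in place of 1, and limma's voom on the recovered reads gave 3.51, so the size of this rise depends on the pseudocount, and in both of these and in the ratio of means it was larger than that of Vegfc (1.97 with a pseudocount of 0.1, 2.00 with voom). Leaving out any of the 3 WT-medium samples, or replicate 1 or 3 of the Alox5KO-medium samples, ended the call, at adjusted p between 0.0555 and 0.0855 by limma with BH adjustment.

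Angpt2 (ENSRNOG00000016696, chromosome 16 from 75966352 to 76016195) lies within the span of Mcph1, a gene of the opposite strand, and the strand setting of the counting is not given in the sources at hand. Mcph1 had 3.78 ± 0.534 FPKM with WT medium, compared with 4.35 ± 0.809 FPKM in Alox5KO medium (mean ± SD, 3 samples each), with a log2 change of 0.16 (limma BH-adjusted p = 0.53). The summed level of the 15 endothelial markers was 81.5 to 120 FPKM with WT medium and 81.5 to 110 FPKM with Alox5KO medium, most of it from the co-receptor Eng, at 72.9 ± 19.8 and 76.0 ± 13.1 FPKM (mean ± SD, 3 samples each). Erg, below the filter and chosen with its values known, had 0.355, 0.0317 and 0.490 FPKM with WT medium. It had 1.62, 0.463 and 1.49 FPKM with Alox5KO medium. In the fit without a filter 12 endothelial markers were tested, and 0 were called higher and 0 lower. From WT to Alox5KO medium Cdh5 and Mmrn2 each went from 1 to 9 reads, Esam from 54 to 33 and Vwf from 17 to 13. The 11 smooth muscle and pericyte markers had a summed level of 1066 to 1133 FPKM with WT medium and 4920 to 6734 FPKM with Alox5KO medium, led by Tagln at 707 ± 25.5 and 2945 ± 396 FPKM (mean ± SD, 3 samples each), with 7 of 10 tested markers higher and 2 lower. Acta2, the other abundant contractile gene of this list, rose from 340 ± 23.4 to 2775 ± 478 FPKM (mean ± SD, 3 samples each). The 2 lower markers, named with their values known, were Kcnj8 and Abcc9, with log2 changes of -1.83 and -0.85. Des, at -0.65, did not pass. Notch3 and Cspg4, also named with their values known and not contractile genes, rose by 2.33 and 0.91 on the log2 scale. The summed rise was thus mainly that of contractile genes, and the other markers of the list moved in both directions. The part of the list's transcripts in the rise of Vegfc, Vegfd, Angpt1 and Angpt2 was not tested.

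Of the angiopoietin-like genes, which share the fold of the angiopoietins but do not bind Tek, Angptl4 fell and Angptl2 did not pass. Angptl4 had 24.6, 24.8 and 27.2 FPKM with WT medium, compared with 13.7, 16.1 and 11.8 FPKM in Alox5KO medium. Its groups were well apart, and the log2 change was -0.85 (SE 0.12, limma BH-adjusted p = 0.0013), or -0.95 to -0.74 over alternatives that all passed. The gene (ENSRNOG00000007545) lies on chromosome 7 from 18627808 to 18634079, with no overlapping row.

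Angptl2, a secreted protein tied to chronic inflammation, had 37.3, 36.1 and 36.4 FPKM with WT medium, compared with 41.8, 47.8 and 45.5 FPKM in Alox5KO medium. Although the samples did not overlap, the log2 change of 0.29, with a 95% confidence interval of 0.08 to 0.50, just missed the threshold (limma BH-adjusted p = 0.052). It passed in 5 of 16 alternatives, with adjusted p from 0.037 to 0.16 over all of them. Ralgps1, on the opposite strand of the Angptl2 locus, was at 0.397 ± 0.0830 and 0.518 ± 0.0227 FPKM (mean ± SD, 3 samples each). Among the other angiopoietin-like genes 1 of 5 passed the filter, Angptl8, at 10.5 ± 6.00 and 3.44 ± 3.24 FPKM (mean ± SD, 3 samples each) and with a log2 change of -1.42 that did not pass (limma BH-adjusted p = 0.26).

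Hgf, the mesenchymal ligand of Met, had the largest fall of the set. WT-medium samples had 15.7, 12.8 and 8.95 FPKM and Alox5KO-medium samples 2.32, 2.88 and 1.28 FPKM, from 3093 and 605 reads in all. Even the lowest WT sample, replicate 3, was above all Alox5KO samples. The mean was 5.77 times as high with WT medium, and the log2 change was -2.09 (SE 0.25, limma BH-adjusted p = 7.4e-04), the 104th largest fall among the tested genes. Over the alternatives it ran from -2.53 to -1.88 and passed each time. Hgf (ENSRNOG00000007027) lies on chromosome 4 from 15433295 to 15505362. In the same samples 5 fibroblast markers fell as well, chosen for mention with their values known: the proteoglycan Dcn, from 2219 ± 711 to 134 ± 66.3 FPKM (mean ± SD, 3 samples each), a log2 change of -4.10 (limma BH-adjusted p = 0.0021), and Lum, Fbln1, Fn1 and Pdgfra, with log2 changes from -2.10 to -1.09. The 4 that rose were Pdgfrb, Col3a1, Vim and Tcf21, with log2 changes from 0.69 to 0.94, so the fibroblast list moved in both directions.

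Epicardial and mesothelial markers had a summed level over 10 genes of 100 to 136 FPKM with WT medium and 33.0 to 40.9 FPKM with Alox5KO medium. Most of this difference was that of Aldh1a2, which makes retinoic acid, at 79.2 ± 21.0 and 7.62 ± 1.16 FPKM (mean ± SD, 3 samples each). Of 5 tested markers Aldh1a2 and Msln fell, 0 rose and 3 did not pass, among them the epicardial transcription factor Wt1, at 18.2 ± 1.02 and 17.2 ± 1.87 FPKM (mean ± SD, 3 samples each). The list's median per library was 1.17 to 1.56 FPKM with WT medium and 0.733 to 1.73 FPKM with Alox5KO medium, ranges that overlap.

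Mast cell markers summed to less with Alox5KO medium, 47.4 to 64.9 FPKM against 25.0 to 34.5 FPKM over 10 genes, most of it from the carboxypeptidase Cpa3, at 45.4 ± 7.69 and 19.6 ± 4.19 FPKM (mean ± SD, 3 samples each). Of 3 tested mast cell markers 0 rose and 2 fell, Cpa3 and Gata2. The protease Cma1, at 6.40 ± 1.32 and 6.35 ± 0.994 FPKM (mean ± SD, 3 samples each), did not pass. Kit, below the filter and like Cma1 chosen with its values known, had 136 and 248 reads. The mast cell genes Tpsb2, Fcer1a and Ms4a2 had no read in any library. Leukocyte markers summed to 31.8 to 36.8 FPKM with WT medium and 24.3 to 38.7 FPKM with Alox5KO medium, led by Cd14 at 20.8 ± 0.533 and 15.5 ± 1.70 FPKM (mean ± SD, 3 samples each). Cd14 fell, whereas Lyz2, at 9.20 ± 3.17 and 13.7 ± 5.46 FPKM (mean ± SD, 3 samples each), did not pass. The part of fibroblast, epicardial, mast cell and leukocyte transcripts in the fall of Hgf was not tested.

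The order of the members by level differed between the media. With WT medium Vegfa led at 67.7 ± 5.83 FPKM, followed by Angptl2 and Vegfc, whose ranges overlapped, then by Angpt1, and by Vegfb and Angptl4, which overlapped as well. Vegfd stood next, above Pgf and Hgf, which overlapped, and Angpt2 was last at 0.0889 ± 0.0521 FPKM (mean ± SD, 3 samples). With Alox5KO medium Vegfc led alone. Angpt1, Vegfa, Angptl2 and Vegfd followed between 49.9 ± 5.61 and 41.9 ± 8.17 FPKM (mean ± SD, 3 samples), each overlapping the next, and then Vegfb, Pgf and Angptl4, of which each also overlapped the next. Hgf and Angpt2 came last, with overlapping ranges, whereas with WT medium they had been apart.

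Receptors for these ligands were unevenly present. Of 11 receptor and co-receptor genes 4 passed the filter, of which 1 rose and 1 fell, beside 10.03% and 10.6% of all tested genes. The median log2 change of the 4 was -0.07. Without WT-medium replicate 3 the median was 0.10, with 1 higher and 0 lower. The neuropilin Nrp1, a co-receptor of Vegfa and of semaphorins, had 14.4, 15.4 and 20.5 FPKM with WT medium, compared with 25.9, 23.6 and 26.8 FPKM in Alox5KO medium, without overlap. Its log2 change was 0.59 (SE 0.14, limma BH-adjusted p = 0.014), and leaving out replicate 1 or 2 of the WT-medium samples or replicate 3 of the Alox5KO-medium samples ended the call, with BH-adjusted p of 0.064, 0.053 and 0.057 by limma. Nrp2, the neuropilin that Vegfc and Vegfd also bind, was the most abundant of these receptors, at 52.9 ± 17.3 and 51.8 ± 2.86 FPKM (mean ± SD, 3 samples each). The wide spread with WT medium came from replicate 3, at 72.9 FPKM against 43.5 and 42.3 in replicates 1 and 2, and the log2 change of 0.02 had an interval of -0.45 to 0.48.

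Flt1, the receptor of Vegfa, Vegfb and Pgf, had 7.12 ± 0.959 and 6.34 ± 0.960 FPKM (mean ± SD, 3 samples each), with overlapping groups and a log2 change of -0.15 (interval -0.47 to 0.18). The receptors Kdr and Flt4 were at the floor of the assay or close to it. Kdr had 4 reads in the WT-medium libraries together and 1 with Alox5KO medium, and Flt4 had 58 and 75 reads, or 0.243 ± 0.0538 and 0.284 ± 0.0895 FPKM (mean ± SD, 3 samples each). The Vegfc and Vegfd transcripts thus rose in cultures in which the transcript of their main receptor was scarce in both groups.

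Tek, which binds both angiopoietins, had 4.27, 4.84 and 6.40 FPKM with WT medium, compared with 2.70, 3.44 and 3.29 FPKM in Alox5KO medium. It fell by 0.56 on the log2 scale (SE 0.16, limma BH-adjusted p = 0.034), against the direction of its ligands. This call did not hold in 6 of 15 alternatives, namely TPM scaling, the fit without a filter, and the fits that left out replicate 2 or 3 of the WT-medium samples or replicate 1 or 3 of the Alox5KO-medium samples, where adjusted p lay between 0.068 and 0.11 by limma with BH adjustment. Tie1, the partner receptor of Tek, had 11 and 6 reads per group. Ptprb, a phosphatase that acts on Tek, had no read with WT medium and 24 with Alox5KO medium, and it did not pass in the fit without a filter (limma BH-adjusted p = 0.17) but did with voom on the recovered reads, at 9.4e-04. Met, the Hgf receptor, had 0.740 ± 0.123 and 0.779 ± 0.338 FPKM (mean ± SD, 3 samples each), below the filter. Lilrb3 and Pirb, of the receptor family that binds Angptl2, were listed at 0 in all samples.

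**Figure D4:**
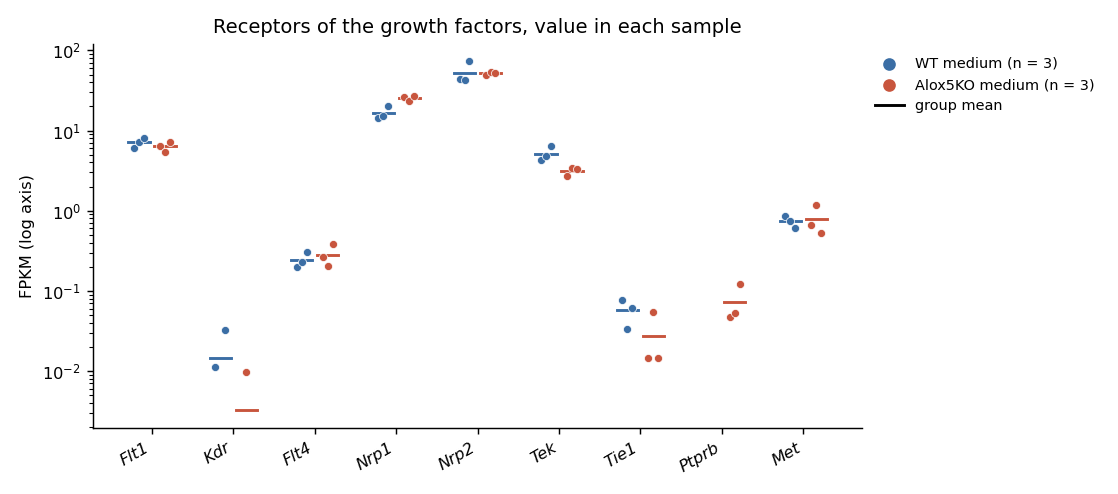
FPKM of 9 receptor genes of the growth factors in each sample, on a log axis, with points for samples and lines for group means; samples listed at 0 have no point. Nrp2, Nrp1, Flt1 and Tek lie between 2.70 and 72.9 FPKM, whereas Kdr, Flt4, Tie1 and Ptprb lie below 0.4 FPKM in every sample.

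Several of the ligands are made as precursors, and the genes that process or restrain them changed in both directions. Of 15 such genes found, 10 were tested. Of these 3 rose and 3 fell, beside 10.03% and 10.6% of all tested genes, with a median log2 change of 0.24. Only 1 rose when replicate 1 or 2 of the WT-medium samples was left out or no filter was used. Adamts3, the protease that converts Vegfc to its active form, went from 6.52 ± 1.98 to 1.10 ± 0.224 FPKM (mean ± SD, 3 samples each), a log2 change of -1.82 (SE 0.20, limma BH-adjusted p = 2.5e-04). Pcsk5, a proprotein convertase, fell by 1.54 on the log2 scale, and Bmp1, the procollagen C-proteinase, fell by 1.05. The convertase Furin, chosen for mention with its values known, had 42.5 ± 4.13 and 46.0 ± 6.26 FPKM (mean ± SD, 3 samples each) and did not pass. The heparan sulfate proteoglycan Sdc1 rose by 0.58. The convertases Pcsk6 and Pcsk7, also chosen with their values known, rose by 0.62 and 0.39. Lpl, the lipase that Angptl4 inhibits and likewise chosen with its values known, had 26.8 ± 0.938 and 35.0 ± 4.91 FPKM (mean ± SD, 3 samples each), with a log2 change of 0.37 (limma BH-adjusted p = 0.054).

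Hypoxia-inducible factors are known activators of Vegfa and Angptl4, and the genes of that pathway were lower as a group. Of 29 tested members of the hypoxia list 18 fell, 1 rose and 10 did not pass, against 10.6% lower and 10.03% higher of all tested genes, and the list's median log2 change was -0.60. The prolyl hydroxylase Egln3, itself induced by hypoxia, fell from 35.9 ± 3.64 to 7.34 ± 1.61 FPKM (mean ± SD, 3 samples each), a log2 change of -2.16 (SE 0.15, limma BH-adjusted p = 1.7e-05). Ndrg1 fell by 2.15, the glucose transporter Slc2a1 by 1.13 and the mitophagy receptor Bnip3 by 1.18. The subunit gene Hif1a, also chosen with its values known, went from 103 ± 6.23 to 63.7 ± 11.6 FPKM (mean ± SD, 3 samples each), a log2 change of -0.70 (limma BH-adjusted p = 0.0067). Between 13 and 18 members fell over the alternatives, and the single rise in the planned fit was that of Vldlr, a lipoprotein receptor chosen with its value known. Vegfa and Angptl4 moved in the direction of most of this list, and so did Hgf. Vegfc, Vegfd and Angpt1 did not, nor did Angpt2 in the fit without a filter. Vegfb, which was lower, and Pgf and Angptl2, which were higher, did not pass. Oxygen in the cultures was not measured here, and the part of this pathway in the fall of Vegfa and Angptl4 was not tested.

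Angptl4 is also a target of the PPAR nuclear receptors and of the glucocorticoid receptor. In the PPAR list 4 of 10 tested genes rose and 0 fell, against 10.03% higher and 10.6% lower of all tested genes. The median log2 change was 0.13, and 2 genes rose when replicate 1 of the WT-medium samples, or replicate 1 or 3 of the Alox5KO-medium samples, was left out. The 4 were the fatty acid binding protein Fabp3 (1.66), the lipid droplet protein Plin2 (0.77), the carnitine transferase Cpt1a (0.87) and the beta-oxidation enzyme Acaa2 (0.81). The receptor gene Ppard, chosen with its values known, had -0.31 and did not pass. Pdk4, also so chosen, lay below the filter at 0.770 ± 0.367 and 0.235 ± 0.161 FPKM (mean ± SD, 3 samples each). In the glucocorticoid list 5 of 11 tested genes fell and 0 rose, beside 10.6% and 10.03% of all tested genes. The list's median was -0.42, and 1 gene rose under 4 alternatives. The median was -0.20 without WT-medium replicate 3. The kinase Sgk1 fell by 1.73, the NF-kB inhibitor Nfkbia by 1.30, the immunophilin Fkbp5 by 1.26 and the leucine zipper gene Tsc22d3 by 0.64. Nfkbia is induced by NF-kB as well, so the list is not specific to glucocorticoids. The part of either receptor in the fall of Angptl4 was not tested.

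**Figure D5:**
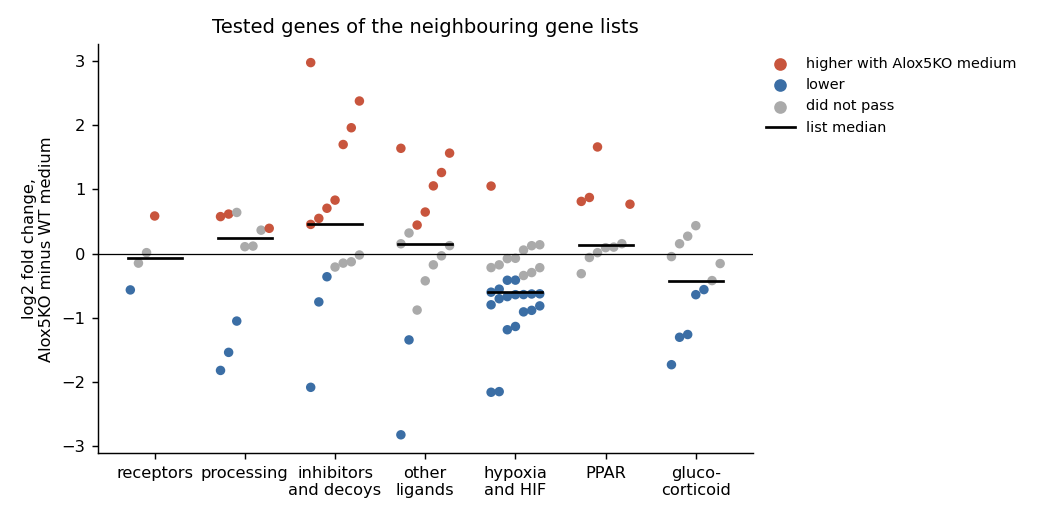
Log2 fold change (Alox5KO minus WT medium) of the tested genes of 7 gene lists around the growth factors, with 1 point per gene coloured by limma's call and a line at the list median. The hypoxia list has 18 lower genes and 1 higher gene and a median of -0.60, among 29 tested genes. The lists differ in length: of the 15 tested inhibitors, 8 are higher and 3 lower.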

How the data were processed

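The authors deposited FPKM values per gene, with 1 column per sample and gene lengths and positions, per the file headers. Per the submitters' processing notes the tools were HISAT2 2.0.5, featureCounts 1.5.0-p3, fastp, CASAVA 1.8 and DESeq2 1.20.0, with no role named, and the build was mm10. The labels also name mouse as the organism, yet 32883 of 33682 rows carry rat Ensembl identifiers and 0 mouse ones. The rat build and the strand setting are not given in the sources used here. Only mouse sequences were at hand, so no sequence is shown.

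FPKM times gene length gave whole reads, within 0.05 reads, for 100% of the values above 0. All genes averaging 1 FPKM or more were tested as log2(FPKM + 1) with limma 3.58.1 in R 4.3.3 (trend, robust prior, two-sided, no block), with Benjamini-Hochberg adjustment over all 12341 genes. The script was tested on simulated data. Single sums and shares were compared with exact two-sided permutation tests over samples (scipy 1.17.1).

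The members, the lists and the tests were chosen with earlier results of these data known. Named genes are all members, every receptor, up to 4 genes with the smallest p per list and the most abundant gene of each marker list. The labels do not say whether replicate numbers pair the samples, and the planned fit did not pair them. Alternatives were other pseudocounts (0.1, 0.5), filters (none, 5 FPKM) and scalings, no trend, a replicate block, voom on recovered reads and leaving out each sample. Those for Angpt2, all without the filter, were chosen after seeing the data.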

Additional observations from a re-analysis of the deposited data

How the results depend on the processing

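Between 3 and 4 members were called higher and 2 to 3 lower over 16 alternatives, the fourth rise being that of Angptl2 or, without a filter, Angpt2. Over all genes, leaving out 1 sample gave 791 to 1226 higher and 862 to 1325 lower calls, the lowest without WT-medium replicate 1. Voom on recovered reads called 1430 and 1272. With 1 sample left out Pgf ran from -0.10 to 0.39 and Nrp2 from -0.12 to 0.27. Without the filter, Met had -0.033 without WT-medium replicate 3 and -0.13 without Alox5KO-medium replicate 2, and Flt4 had -0.0081 without Alox5KO-medium replicate 3; the cause was not tested. With the replicate number as a block 3 members rose and 3 fell, and 1277 and 1375 of all genes, and no call of a member changed. The deviations of same-numbered samples correlated at -0.0963, 0.105 and 0.167, and those of differently numbered samples between -0.192 and 0.101. With 3 samples per group this cannot settle whether replicates were paired, and the labels do not say. The difference in summed VEGF ligands ran from 103 to 111 FPKM with 1 sample left out and was 208 in TPM. Among the angiogenesis inhibitors 5 rose in place of 8 when Alox5KO-medium replicate 3 or either of WT-medium replicates 1 and 2 was left out. Depth limits Angpt2, Kdr, Tie1 and Ptprb, which rest on few reads.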

Other observations

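Other secreted regulators of vessels changed in both directions in the same contrast. Of 15 tested genes in a list of other angiogenic ligands 6 rose and 2 fell, beside 10.03% and 10.6% of all tested genes. The list's median log2 change was 0.15. Only 4 rose without a filter, without trend and robust prior, or when WT-medium replicate 1 or 2 or Alox5KO-medium replicate 3 was left out. Without WT-medium replicate 3, 5 rose and 3 fell, with a median of 0.11. The matricellular Ccn1, a ligand of integrins, rose from 83.0 ± 4.84 to 262 ± 31.7 FPKM (mean ± SD, 3 samples each), a log2 change of 1.64 (limma BH-adjusted p = 1.7e-05). The vasoconstrictor endothelin, Edn1, rose by 1.57. The chemokine Cxcl12 fell by 1.34, and Apln, the ligand of the apelin receptor and a transcript that hypoxia induces, went from 16.6 ± 6.50 to 1.44 ± 0.804 FPKM (mean ± SD, 3 samples each), a log2 change of -2.82 (limma BH-adjusted p = 0.0025). Adm, adrenomedullin, chosen for mention with its values known, had 79.8 ± 11.8 and 71.5 ± 18.2 FPKM (mean ± SD, 3 samples each) and did not pass.

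Among 15 tested inhibitors of angiogenesis 8 rose and 3 fell, beside 10.03% and 10.6% of all tested genes, with a median of 0.46. The list mixes functions: Cxcl10, which rose by 2.97, is induced by interferon, and Timp3, which rose by 2.38, also inhibits matrix proteases. Thbs1, a thrombospondin that restrains endothelial growth, rose from 475 ± 145 to 1503 ± 107 FPKM (mean ± SD, 3 samples each). Ptx3, a pentraxin that binds fibroblast growth factors, fell by 2.08.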
